A study of Homo sapiens with 12 samples.

Results

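Around the centromere of chromosome 3, the pooled ATAC-seq peak list broke into many short accessible intervals, and these are described here one by one and as a group. The regions were chosen by position and interval length: a peak line on chromosome 3 was taken when its summit lay between positions 90000000 and 95000000 and its interval spanned at most 10 kb. The rule gave 318 intervals with 1213 summits, out of 378 intervals and 2832 summits in that window of 5 Mb and 91278 intervals and 188019 summits in the whole list. The short intervals therefore made up 84.1% of the window's intervals, 42.8% of its summits and 43.2% of its covered length, and 0.645% of all summits in the list. Because the same peak calling that the rule reads also gave every value below, the values are descriptions without a test.

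The study placed HT1080 cells, an established human fibrosarcoma line, in rat tail type I collagen gels and measured open chromatin by ATAC-seq, in which a transposase cuts accessible DNA and tags the fragments for sequencing. Its 3 groups differed in collagen concentration, with 4 libraries each: 0.3 mg/mL in the low group, 1.0 in the medium and 1.7 in the high. All cells migrated for 48 h, and every group received the broad matrix metalloproteinase inhibitor GM6001 at 20 µM. The peak list used here pools the 12 libraries and names no library or concentration, so no comparison between concentrations was made, no replicate spread exists and the depth per library is unknown.

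Centromeres are the sites where spindle fibres attach, and human centromeres are built from long arrays of alpha satellite, a short repeat copied in tandem. The flanking pericentromere holds further satellites and few genes, and is usually packed as heterochromatin, which the transposase enters less readily than active promoters. Short reads from near-identical repeats can fit many places, and reference assemblies can represent such arrays by modelled sequence, so a peak there is tied to a position less securely than a peak at a promoter. How reads with several possible places were treated is not given in the sources used here, and neither repeat annotation nor the sequence of the gene-free intervals was used. The kind of repeat under each interval was therefore not determined, and the gene table used here does not mark the centromere itself.

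Promoters were few in the window. Sequence is shown from the promoter windows of PROS1 and of NSUN3 with DHFR2, which held a summit, although neither printed stretch reaches the summit itself. Of the 20 RefSeq genes that lie in or reach into the window (GRCh38.p14), 6 had an entry in a table of 35116 RefSeq promoter windows, each covering 250 bases before and 50 after the first base of the gene's transcript. PROS1, which encodes the anticoagulant cofactor protein S, runs on the minus strand, and its 250 upstream bases lie at chr3:93973897-93974146. NSUN3, which encodes a methyltransferase of mitochondrial methionine tRNA, and DHFR2, a dihydrofolate reductase gene, point away from each other and share 1 summit. The 30 bases shown for them lie between the first bases that the promoter table gives, at chr3:94062974-94063003 on the plus strand, and inside the longer DHFR2 gene record. Both are written 5′ to 3′ from RefSeq, with GC boxes (GGGCGG on either strand) in capitals in the first and the element TCTCGCGA, read on both overlapping strands, in capitals in the second.
PROS1: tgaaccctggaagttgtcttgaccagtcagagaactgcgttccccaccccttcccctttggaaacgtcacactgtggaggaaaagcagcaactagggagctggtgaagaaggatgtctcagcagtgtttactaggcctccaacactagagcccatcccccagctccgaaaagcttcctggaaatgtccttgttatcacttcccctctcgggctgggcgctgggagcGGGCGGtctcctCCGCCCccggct
NSUN3 and DHFR2: caaatcagtaTCTCGCGAGAaattgaagag

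The PROS1 window was 61% G or C and held 18 CpG dinucleotides and 2 GC boxes. The NSUN3 window held 23 CpG and the overlapping DHFR2 window 20, and each held 2 matches to TCTCGCGA, which are the 2 strands of the palindrome printed above, and 2 matches to the ETS core CCGGAAG. Over all windows of the table the median was 14 CpG and 58.7% G or C. GGGCGG was present on at least 1 strand in 44.95% of them, CCGGAAG in 10.3% and TCTCGCGA in 1.15%. CCAAT, found in 34.6% of all windows, matched once in the NSUN3 window, and neither TATAAA (11.5% of all windows) nor TGANTCA (7.71%) matched in the PROS1, NSUN3 or DHFR2 windows. These matches describe the letters only.

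Each summit has the authors' enrichment, which is the fold of the fragment pileup over a local background. From it and the authors' −log10 p the pileup, in overlapping fragments, and the background were recovered. The recovery gave a whole-number pileup at all 1213 summits. The typical short interval was weak: the median enrichment over the 1213 summits was 2.25, with quartiles of 2.02 and 2.67 and a lowest value of 1.69. The median pileup was 47 fragments, with quartiles of 42 and 56, and the median −log10 q was 5.33. Enrichment was below 3 at 1026 summits (84.6%) and above 5 at only 30 (2.47%). At 26 summits the enrichment was the lowest of the group, 1.69, which corresponds to a pileup of 35, the lowest pileup in the whole list. The lower quartile of 42 fragments was thus close to the weakest peak on record.

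The recovered background stood almost always at the lowest value of the list, so local differences below that value could not be seen. At 1200 of the 1213 summits (98.9%, exact 95% binomial interval 98.2 to 99.4, counting error only) it equalled 20.3 fragments within 0.2%, which was the lowest background anywhere in the list and is called the genome-wide background. The genome-wide background was also found at 53.0% of all summits in the list and at 81.5% of those in intervals over 100 kb. In short intervals of the rest of chromosome 3 it was found at 35.8% of 5537 summits, and on the other chromosomes at 34.2% of 101359. Short intervals elsewhere were also taller: their median enrichment was 4.72 on the rest of chromosome 3 and 3.94 on the other chromosomes, and their median pileups were 124 and 108 fragments. Enrichment exceeded 5 at 47.4% of the summits on the rest of chromosome 3.

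**Figure D1:**
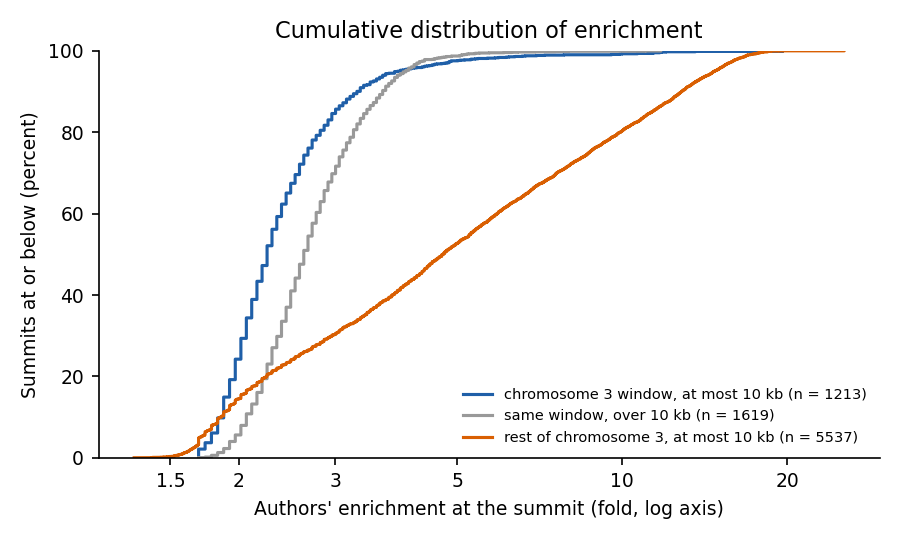
Cumulative share of summits (percent, vertical axis) at or below each value of the authors' enrichment (fold, log horizontal axis). Blue is the 1213 summits of short intervals in the window, grey the 1619 summits of its longer intervals and orange the 5537 summits of short intervals on the rest of chromosome 3; the blue curve has passed 84.6% at an enrichment of 3, where the orange curve stands at 30.4%.

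The intervals also differed in shape from the short peaks of the rest of the chromosome. Their median length was 1476 bp, with quartiles of 511 and 4352 bp and a range of 253 to 9963 bp, while short intervals of the rest of chromosome 3 had a median of 501 bp. A single summit was present in 144 of the 318 intervals (45.3%), against 88.4% of the 4851 short intervals on the rest of the chromosome. The other 174 intervals held 1069 summits, up to 15 in 1 interval. Summits were no denser for that: there were 13.7 per 10 kb of covered length, against 19.3 on the rest of the chromosome.

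Length and summit number rose together across the 318 intervals (Spearman's rho 0.92), and so did length and the highest enrichment in the interval (rho 0.70). Both values are descriptions over intervals of the same pooled libraries, and a longer interval has more summits from which to take its highest. The 77 intervals of up to 500 bp held 78 summits and had a median highest enrichment of 1.83. The 72 intervals from 5 to 10 kb held 693 summits, 57.1% of the total, with a median of 10 summits and a median highest enrichment of 3.17. The single-summit intervals had a median length of 477 bp and a median enrichment of 1.88, and the 39 intervals with 10 or more summits had a median length of 8181 bp and a median highest enrichment of 3.24.

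**Figure D2:**
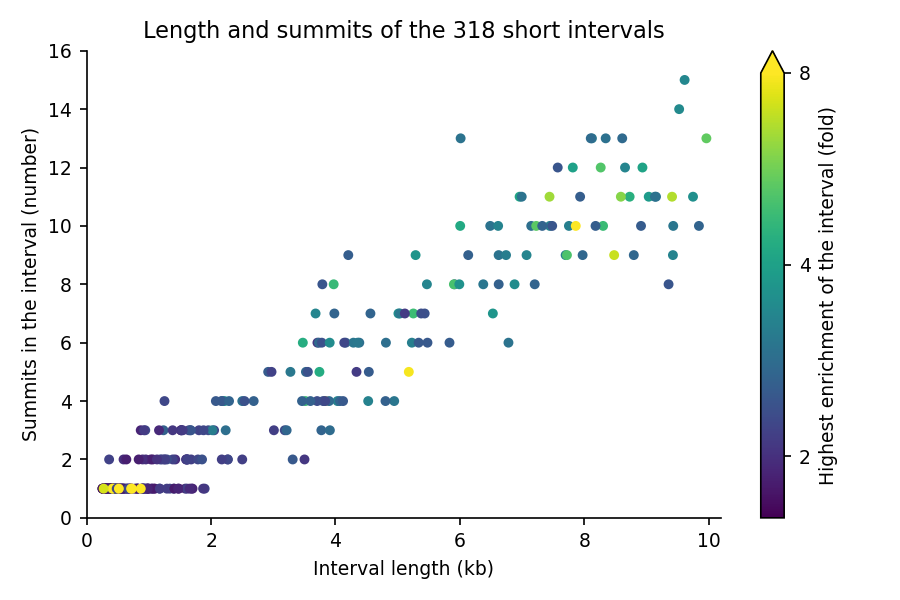
Each point is 1 of the 318 short intervals, with its length (kb) on the horizontal axis, its number of summits on the vertical axis and its highest enrichment (fold) as colour. Points climb from single-summit intervals of median length 477 bp to intervals of nearly 10 kb with up to 15 summits.

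The length limit cut through a continuous range. The 5 longest short intervals measured 9525, 9613, 9748, 9843 and 9963 bp, held 14, 15, 11, 10 and 13 summits, and had highest enrichments of 3.42, 3.38, 3.57, 2.67 and 5.39. The 5 intervals just above the limit measured 10027, 10058, 10083, 10106 and 10333 bp, held 14, 14, 12, 11 and 14 summits, and had highest enrichments of 2.39, 3.57, 2.67, 3.14 and 3.80. The strongest summit in each of the 10 intervals stood on the genome-wide background. No step in summit number, enrichment or background marked the limit.

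The 60 longer intervals of the window, of 10027 to 63011 bp, held 1619 summits. Median enrichment was 2.63 in the longer intervals and 2.25 in the short ones, and the median pileups were 55 and 47 fragments. Their background was genome-wide at 99.3% of summits, and they had 13.9 summits per 10 kb, close to the 13.7 of the short intervals. Of 27 bins of 100 kb that held at least 5 summits of each kind, the longer intervals had the higher median enrichment in 25. The 2 kinds are split by length, and length rose with enrichment among the short intervals too. The count is therefore not separate support for a difference. Intervals lay close to each other: the median distance from a short interval to the nearest other interval of any length was 597 bp, 212 of the 318 (66.7%) had a neighbour within 1 kb, and 298 (93.7%) within 5 kb. The smallest distance was 254 bp.

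Within the multi-summit intervals, neighbouring summits were a median of 615 bp apart, with quartiles of 406 and 885 bp and a range of 123 to 3269 bp over 895 neighbouring pairs. A repeat of fixed length can place summits at a recurring distance, so all 4784 pairs up to 5000 bp apart were counted in bins of 20 bp. From 300 bp upward, 235 bins held between 8 and 35 pairs, with a median of 20. The fullest started at 620 bp with 35 pairs, followed by those at 960 bp with 34 and at 580 and 760 bp with 33 each. These counts lay close together, and the fullest bin moved to 920, 320 or 300 bp when summits were thinned to 1 per interval, limited to neighbours or limited to a −log10 q of at least 10. No 1 distance stood out among these pairs. No bin below 220 bp held more than 6 pairs, so a shorter recurring distance could hardly appear. The 1619 summits of the window's longer intervals were not paired, so a fixed repeat length was not tested for the window as a whole.

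**Figure D3:**
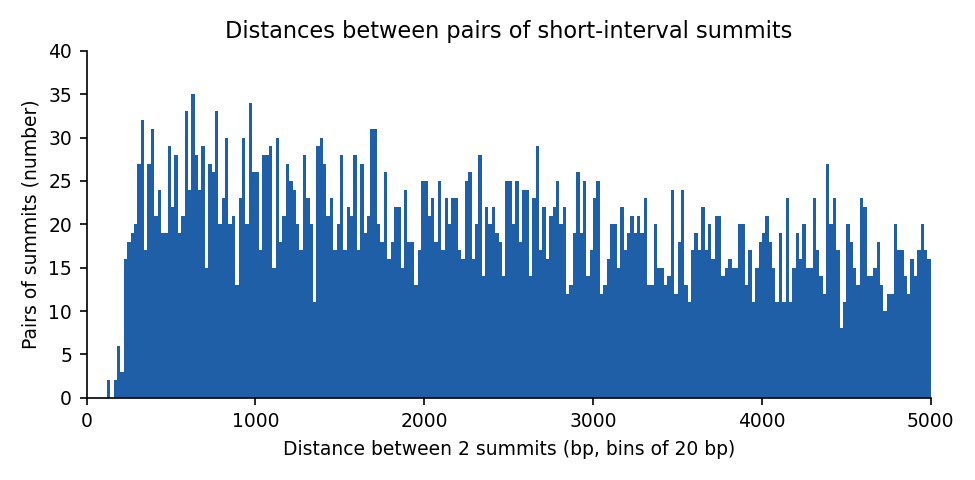
Number of pairs of summits of the short intervals (vertical axis) at each distance up to 5000 bp (horizontal axis, bins of 20 bp). Counts fall slowly with distance, between 8 and 35 pairs per bin from 300 bp upward, and no bin rises far above its neighbours.

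The intervals were not spread evenly over the window. Its longest stretch without a RefSeq gene ran from 91513776 to 93843763, or 2.33 Mb, and held 814 summits in 213 short intervals, 349 summits per Mb. The 1.37 Mb before the pseudogene LOC101930420, on the other side of that gene, held 392 summits in 98 intervals, 285 per Mb. The 1.16 Mb after the stretch held 7 summits in 7 intervals, 6.05 per Mb. Within LOC101930420 itself, a transcribed pseudogene of 139.5 kb, there was no interval of any length.

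The first 2 of these blocks had close medians. Median enrichment was 2.25 in the gene-free stretch and 2.30 before LOC101930420, and the median pileups were 47 and 48 fragments. All 392 summits before LOC101930420 stood on the genome-wide background, as did 98.8% of the 814 in the gene-free stretch. Across the 32 bins of 100 kb with at least 5 summits of short intervals, the median enrichment ran only from 1.97 to 2.89. The 10 bins without such a summit had no summit of a longer interval either.

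Of the 7 intervals after the gene-free stretch, 6 had an enrichment above 5. The other, at 94159254, had an enrichment of 2.25 and 47 fragments, which were the medians of all 1213 summits. Single-summit intervals with an enrichment above 5 also lay outside this block, such as those at 93841801 (6.14) and 90185106 (5.86). Each of the 7 held 1 summit, their lengths ran from 273 to 870 bp with a median of 518 bp, and none had another interval within 1 kb. Their median enrichment was 9.90 and their median pileup 210 fragments. Of the 7, 4 stood on the genome-wide background. Beyond the coding genes, the last 3 lay 27.4, 31.0 and 94.4 kb from NSUN3 with enrichments of 2.25, 7.22 and 9.57. No longer interval was present in this block.

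**Figure D4:**
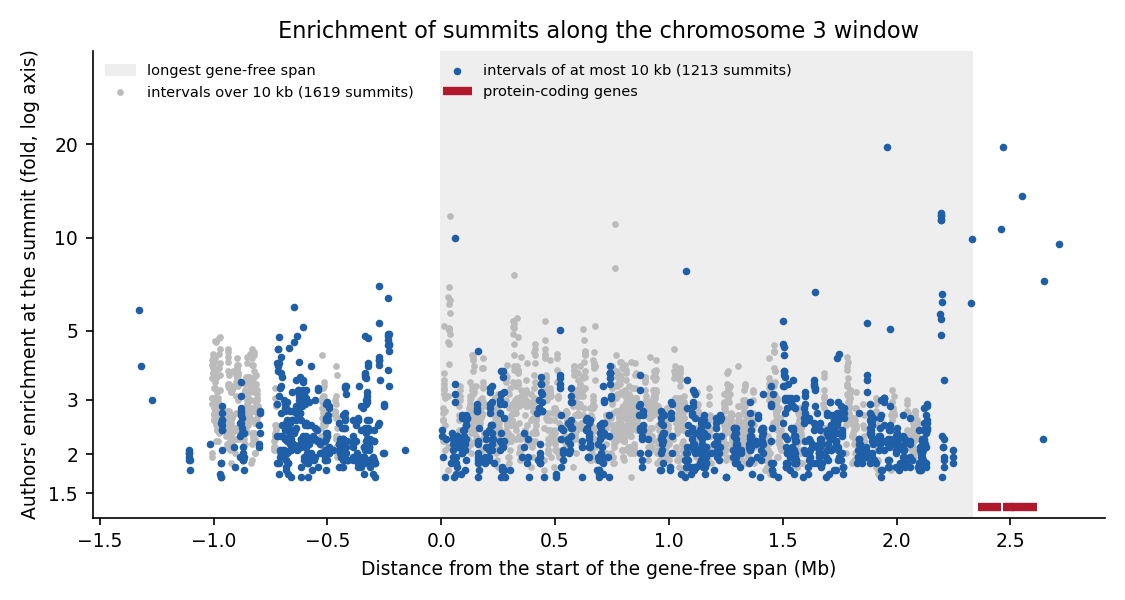
Authors' enrichment at each summit (fold, log vertical axis) against distance from the start of the longest gene-free stretch (Mb, shaded). Blue points are the 1213 summits of short intervals, grey points the 1619 of longer intervals and red bars the protein-coding genes; the dense low band, with a median of 2.25 in the shaded stretch, gives way to 7 isolated summits with a median of 9.90 beyond it.

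Among the protein-coding genes of the window, PROS1, DHFR2 and NSUN3 had a short-interval summit within 1000 bp of an end. The summit shared by NSUN3 and DHFR2, at 94062881, reached 13.6 from 473 fragments over a background of 33.8, and lay 180 bp before the first base of NSUN3 and 35 bp downstream of that of DHFR2 in the promoter table. The DHFR2 gene record runs on to 94063320, so by that record the summit lay 439 bp inside DHFR2, and the first base of NSUN3 lay within the gene too. Near PROS1 the summit at 93973892 was enriched by 10.7 with 233 fragments, and lay 4 bp inside the gene, next to the GC boxes shown in the sequence above. These summits lay in single-summit intervals of 714 and 870 bp.

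STX19, a syntaxin gene whose family acts in membrane fusion, had no such summit: its nearest was 34.3 kb away. G or C made up 61%, 51% and 52.3% of the PROS1, NSUN3 and DHFR2 windows, which held a summit, with 18, 23 and 20 CpG. It made up 33.3%, 50.3% and 68.7% of the STX19, LOC105373992 and LINC00879 windows, which held none, with 5, 5 and 26 CpG. The NSUN3 and DHFR2 windows overlap and share 1 summit, and a link between composition and summits was not tested. The long noncoding RNA genes were farther still from any short interval, with LOC105373992 at 421.8 kb and LINC00879 at 712 kb. The last summit of the window, at 94226242, left its final 773.8 kb without an interval.

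Of the 12 pseudogenes, 3 had a short-interval summit within 1000 bp. RNU6-488P, a pseudogene of U6 small nuclear RNA at the edge of the gene-free stretch, had a summit 349 bp away, enriched 9.90-fold with 210 fragments. RNU6-712P, another U6 pseudogene, had one at 373 bp with an enrichment of 5.86, and PROS2P, a pseudogene of protein S, one at 325 bp with an enrichment of 3.00. Counting NSUN3 and DHFR2 together, 6 of the 1213 summits (0.495%) were near a gene end, or 1.89% with each interval counted once. No such share over the whole list is given here, and the window includes 2.33 Mb without a gene. Whether the share is low for the list therefore cannot be told. The 6 summits near a gene end had a median enrichment of 10.3 against 2.25 for the other 1207. The remaining 13 of the 20 genes had none.

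Inside the gene-free stretch, 3 intervals held the highest enrichments. The most extreme was a single-summit interval of 491 bp at 93470364 to 93470854, 373.2 kb from the nearest gene, RNU6-488P. Its enrichment was 19.6, its pileup 12223 fragments and its background 622 fragments, which was 30.6 times the genome-wide value. This was the highest pileup of the 1213 summits. How these fragments were divided over the 12 libraries was not analysed here.

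The other 2 were clusters of several summits. An interval of 7863 bp at 93705763 to 93713625, 131 to 137 kb from RNU6-488P, held 10 summits with enrichments of 4.85 to 12.02 and a median of 8.98, and supplied 5 of the 10 highest enrichments of the group. Its 5 central summits, from 93708748 to 93710727, had pileups of 328, 312, 322, 326 and 325 fragments. The summits on either side were lower, at 112 to 120 fragments before them and 158 and 165 after. Its background was above the genome-wide value at 9 of the 10 summits. An interval at 91572303 to 91576141, 59.1 kb beyond LOC101930420, had 4 summits, and the highest reached an enrichment of 9.99 with 212 fragments on the genome-wide background.

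Of the 13 summits with a raised background, 9 lay in the 7863 bp interval, and the others included the peaks at PROS1, at NSUN3 and DHFR2, and at 93470607. They ran from 20.8 fragments in the cluster to 622. The next highest peaks of the gene-free stretch and of the block before it, at 92590117, 91242737 and 93155122, had enrichments of 7.83, 6.99 and 6.66 on the genome-wide background. Each was the strongest summit of an interval with 5 to 11 summits.

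The longest gene-free stretch of each other chromosome gives a setting for these numbers. Of 23 chromosomes, 20 had at least 100 summits in it. On chromosome 3, 38.2% of the stretch's 2129 summits were in intervals of at most 10 kb, second to 64.3% on X, which had only 213 summits there. The exact 95% binomial interval of the chromosome 3 share, 36.2 to 40.3, treats summits as independent. The summits came from 213 short and 51 longer intervals, and all summits of 1 interval share its length, so that range is too narrow. Next came chromosomes 18 with 25.6%, 17 with 22.6% and 4 with 20.9%, and the median of the 20 was 3.29%. The rank of chromosome 3 stayed second with length limits of 5 kb (15.2%) and 20 kb (67.2%). Chromosome 3 was singled out for this pattern, so its rank is a description.

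The long intervals of these stretches also placed chromosome 3 at an end of the range. Their median enrichment was 2.58 on chromosome 3, the lowest of the 20, followed by 2.86 on chromosome 18 and 3.00 on 13, with a median over chromosomes of 4.43 and a highest value of 6.32 on 10. The longest single interval of the chromosome 3 stretch was 63.0 kb, and only X had a shorter maximum, of 39.1 kb. The short intervals of chromosome 3 were not unusual in level: their median of 2.25 was the ninth lowest in a range from 1.88 to 3.41. In number, the 213 short intervals were exceeded only by the 390 of chromosome 18, with 206 on chromosome 17. Those 2 stretches were longer, at 5.62 Mb on chromosome 18 and 4.28 Mb on 17 against 2.33 Mb on chromosome 3, so the counts do not rank density. Short intervals averaged several summits on some chromosomes: 814 summits shared the 213 short intervals on chromosome 3, 1301 the 390 on chromosome 18, 730 the 206 on chromosome 17 and 543 the 124 on chromosome 4. They averaged fewer on others, with 137 summits in 94 short intervals on X, 48 in 36 on chromosome 15 and 16 in 12 on chromosome 8.

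**Figure D5:**
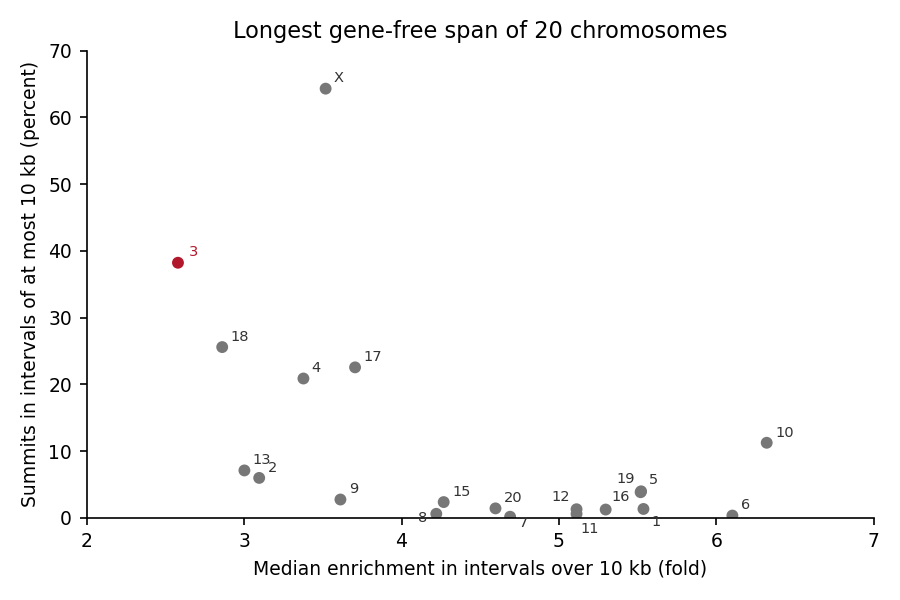
Each point is the longest gene-free stretch of 1 of 20 chromosomes, labelled by chromosome, with the median enrichment of its intervals over 10 kb (fold, horizontal axis) and the percentage of its summits in intervals of at most 10 kb (vertical axis). Chromosome 3 (red) has the lowest median, 2.58, and the second highest percentage, 38.2, after X.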

How the data were processed

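ATAC-seq was made from 12 libraries, and 1 peak list pooled over the series was analysed. The submitters' processing notes name fastp 0.20.0, Bowtie2 2.4.3, SAMtools, deepTools 3.5.0, MACS2 2.2.7.1 and hg38, with no role or order, and their parameters are not given in the sources used here. The deposited list has 10 columns without a header: intervals, a score, an enrichment ratio (fold over background), −log10 p, −log10 q and a summit offset, all the authors' values. The deposited score equalled −log10 q times 10, truncated, in 99.8% of lines. The lowest −log10 q was 1.30.

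Lines with the same start and end were taken as summits of 1 interval. Each line's pileup and background were solved from its fold, read as (pileup + 1)/(background + 1), together with a Poisson upper-tail p. No source states this model. It gave a pileup whole within 0.05 in 99.96% of 188019 lines, and the 80 others had pileups of at least 1130. The method was tested on data simulated from this same model, which checks the solving and cannot show that the model is right. Genes came from RefSeq (GRCh38.p14), matched by position, and summits at most 1000 bp from a gene's start or end coordinate were called near that gene. Coordinates are 1-based.

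The regions, the lists and the rule were chosen with earlier results of these data known. Named intervals were the 10 summits of highest enrichment, the 5 of highest pileup, the 5 longest and the strongest at each gene end; the intervals that stand first in each block, those at 92590117, 91242737 and 93155122 and the chromosome comparison at 5 and 20 kb were taken up after values were seen. No test between groups was made, and 1 item that the rule would name is not reported here. Python 3.11.15, NumPy 2.4.6, SciPy 1.17.1, pandas 2.3.3 and Matplotlib 3.10.9 were used.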

Additional observations from a re-analysis of the deposited data

How the results depend on the processing

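Of 64 results recomputed under an alternative, 34 stayed and 30 moved. Staying meant within the 95% interval of the main result, for counts within 1.5 times, and for the most frequent spacing within 20 bp. For shares and medians over summits that interval treats summits as independent, so the labels are rough. The number of summits (1213) became 520 with a length limit of 5000 bp, 244 with 2000 bp, 2832 with no limit, 399 without the gene-free stretch, 252 at a −log10 q of at least 10 and 318 with each interval counted once. The median enrichment (2.25) became 2.11, 1.92, 2.49, 2.35 and 3.28 under the first 5 of these. The share of summits on the genome-wide background (98.9%) fell to 94.8% at a −log10 q of at least 10. Where a setting keeps fewer or stronger summits by construction, these moves follow from it. Likewise, counting each interval once cannot change the number of intervals or their median length, so these results stayed by definition. The list has no replicates or libraries, so no replicate could be left out, and no paired analysis was possible because the values carry no sample. Depth per library is unknown, and peaks under a pileup of 35 do not appear in the list.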
